A study of Mus musculus with 4 samples.

Results

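The genes compared here are 10 genes that mark the ovarian surface and the mesothelium or tell them from neighboring epithelia. They are the transcription factors Wt1, Gata4, Gata6 and Pax8, the surface proteins Msln, Muc16, Upk1b, Upk3b and Lrrn4, and the hormone receptor Amhr2. They were taken as every probe that is not a control and whose RefSeq accession belongs to one of these symbols. This gave 14 probes for 9 of the 10 genes, out of 56605 probes on the array, and no probe carried an accession of Muc16. Signal was high enough to test 11 of the 14 probes, which represent 8 genes out of 22060 gene names tested. Pax8 was not tested.

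The ovary is covered by a single layer of cells that derives from the coelomic epithelium and is continuous with the mesothelium lining the peritoneal cavity. Cells of both layers keep a program led by WT1 and GATA factors and carry mesothelin and uroplakins on their surface, whereas the oviduct epithelium is marked by PAX8. Because tumors called ovarian may arise from either source, these genes are used to describe the identity of ovarian cancer cells.

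RNA was measured in ID8G and GO2 cells, with 2 Agilent arrays each and a single dye, Cy3. ID8G cells are ID8 mouse ovarian cancer cells, a line from spontaneously transformed ovarian surface epithelium, that carry GFP from a retrovirus and were sorted for it. GO2 cells descend from ID8G cells through 2 rounds of intraperitoneal growth in syngeneic female C57BL/6 J mice. After each round, GFP+ CD45- cells were sorted from the omental tumors, and the cells were kept in culture. Both lines therefore carry GFP and grew in the same medium, with no drug or gene deletion. GO2 is 1 selected line, no second line selected in the same way is analysed here, and time in culture and in mice cannot be told apart from selection. The labels do not say whether the arrays of a line came from separate cultures, so p-values measure the spread between these arrays, which may be technical.

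Levels are log2 intensities relative to the 75th percentile of the array, so 0 is the brightness at that percentile, and differences are GO2 minus ID8G on this log2 scale. A gene was called when the Benjamini-Hochberg adjusted p of the limma fit was below 0.05 and the difference was at least 1, which is 2-fold. That percentile was an intensity of 668 to 675 for ID8G and of 627 to 635 for GO2, and 27502 to 28841 probes per array were well above background. No spot was saturated. The number of arrays limits the precision: a two-sided exact permutation test of 2 arrays against 2 cannot give a p below 0.333, so each adjusted p rests on the variance that limma pools over probes. After scaling, 7 spike-in transcripts were 0.15 to 0.28 higher in GO2 cells. Scaling to them in place of the percentile shifted the median over all tested probes down, from -0.02 to -0.23, and values that this changes are named below.

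Upk3b rose and Amhr2 fell by about the 2-fold limit in GO2 cells, Msln fell by less than that, and Wt1, Upk1b and Lrrn4 overlapped between the lines. Pax8 and Muc16 gave no level to compare. Of the 8 tested genes, 1 was called higher and 1 lower in GO2 cells, while 4.78% of all tested genes were called higher and 3.50% lower. Among the tested genes with a RefSeq symbol these shares were 5.98% and 3.94%, or 9.92% in all. Without the 2-fold minimum, 2 were higher (Gata6 and Upk3b) and 2 lower (Msln and Amhr2), where the shares of all tested genes were 17.5% and 19.0%, or 36.5% in all. Of the 8 genes, 2 had both GO2 arrays above both ID8G arrays and 3 had both below, against 34.5% and 39.6% of all tested genes, or 74.0% in all. The arrays of the other 3 overlapped. With 8 genes, counts of this size are not set apart from those shares. The median difference of the 8 genes was -0.07, against -0.02 over all tested genes, and the median absolute difference was 0.22 against 0.20. In a cell population, fewer cells that express a gene and less RNA per cell cannot be told apart.

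**Figure D1:**
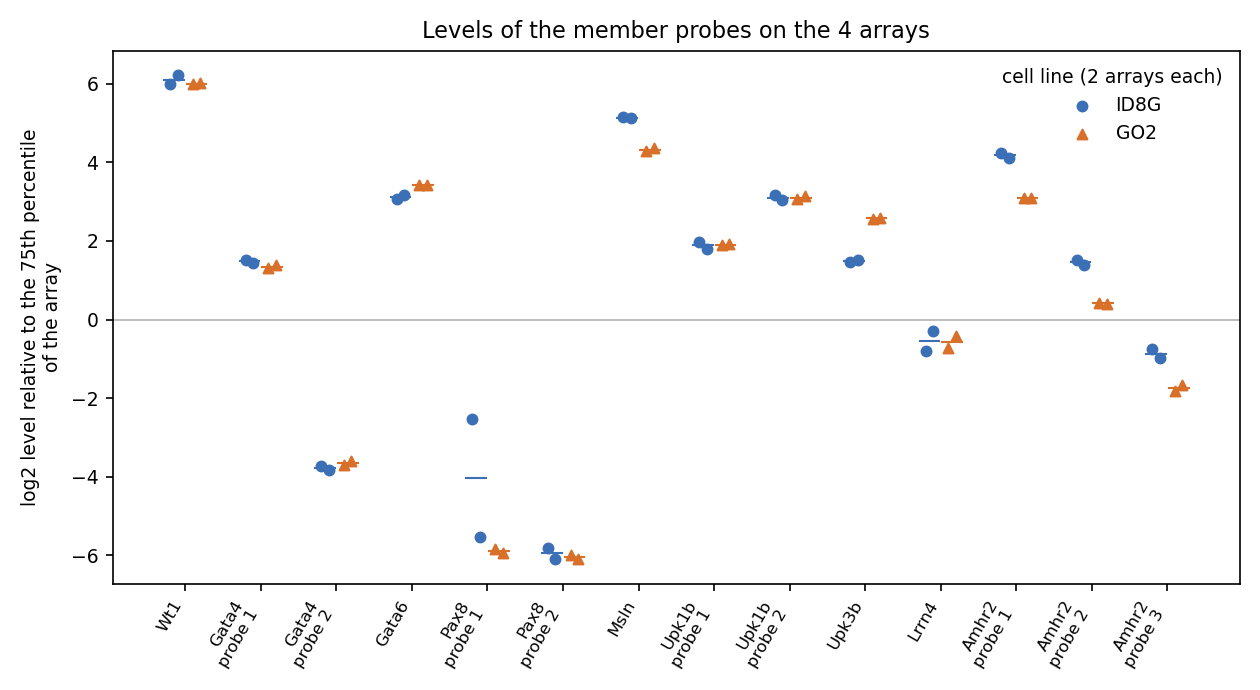
Log2 level of the 14 probes relative to the 75th percentile of each array (y axis) for ID8G (circles) and GO2 (triangles), with 1 point per array and a short line at the mean of the 2 arrays. The arrays of Wt1, Lrrn4 and both Upk1b probes overlap, those of Upk3b lie higher in GO2 cells, those of Msln and the 3 Amhr2 probes lie lower, and of Pax8 probe 1 a single ID8G array stands at -2.54 above the others.

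Among the transcription factors, Wt1 comes first. Wt1 encodes a zinc finger protein that the mesothelium and the gonads need to form. Its probe A_55_P1953143 read 5.98 and 6.22 in ID8G cells and 5.99 and 6.01 in GO2 cells, at intensities of 40471 to 49771. The GO2 arrays lie within the range of the ID8G arrays. The difference was -0.10 (standard error 0.10, limma adjusted p = 0.478), with a 95% interval of -0.36 to 0.17, and with spike-in scaling it was -0.30 (limma adjusted p = 0.0643). A p that misses the threshold does not show equal levels, but the interval leaves out a 2-fold change in either direction.

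Gata4 and Gata6 encode zinc finger factors that act in the coelomic epithelium and in the somatic cells of the gonad. The brighter Gata4 probe, A_55_P2028894, read 1.52 and 1.45 in ID8G cells and 1.31 and 1.38 in GO2 cells. Both GO2 arrays are below both ID8G arrays, and the difference was -0.14 (standard error 0.06, limma adjusted p = 0.152). With spike-in scaling it was -0.35 (limma adjusted p = 0.0452). A second Gata4 probe, A_55_P2744782, lay between -3.82 and -3.61 on the 4 arrays, was well above background on 1 GO2 array only and was not tested.

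Gata6 moved the other way. Its probe A_55_P2806214 read 3.06 and 3.16 in ID8G cells, and 3.41 on each GO2 array. The arrays do not overlap, and the difference was 0.30 (standard error 0.06, limma adjusted p = 0.0273), a 1.23-fold rise with a 95% interval of 0.13 to 0.47 on the log2 scale. With spike-in scaling the difference was 0.09, and without any 1 of the arrays the adjusted p lay between 0.0577 and 0.118. With replicate numbers blocked it was 0.0523, and with no filter on dim probes 0.158, so Gata6 does not pass under these settings even without a minimum fold. The ratio of Gata4 to Gata6 within an array does not depend on scaling: on the log2 scale it was -1.54 and -1.72 in ID8G cells and -2.11 and -2.03 in GO2 cells, lower on both GO2 arrays.

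Pax8 encodes a paired box factor of the oviduct, kidney and thyroid. Its probe A_66_P118214 lay between -6.10 and -5.80 and was not well above background on any array. The probe A_55_P2039532 read -2.54 and -5.53 in ID8G cells and -5.84 and -5.94 in GO2 cells, which are intensities of 116 and 14.4 against 11.1 and 10.2. Only ID8G replicate 1 was well above background, and the arrays of ID8G differ from each other by more than ID8G replicate 2 differs from either GO2 array. The scanner therefore gives no Pax8 level in GO2 cells and disagrees between the ID8G arrays.

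Mesothelin, the product of Msln, is a lipid-anchored surface protein that binds mucin 16, the CA125 antigen. Probe A_51_P146560 of Msln read 5.14 and 5.13 in ID8G cells and 4.28 and 4.35 in GO2 cells. Both GO2 arrays lie far below the ID8G arrays compared with the spread within a line. Msln fell by 0.82 on the log2 scale (standard error 0.06, limma adjusted p = 0.00176), which is 1.77-fold, with a 95% interval of -0.98 to -0.67, and so was not called at the 2-fold limit. With spike-in scaling the difference was -1.03 (limma adjusted p = 3.69e-05), and Msln was then called lower. Without any 1 array it was -0.86 to -0.79.

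Upk1b and Upk3b encode uroplakins, membrane proteins first known from the bladder lining that mesothelial cells also carry. UPK1B is a tetraspanin, and UPK3B is of the other kind, with a single membrane span. Upk1b has 2 probes. The brighter, A_55_P2932738, read 3.16 and 3.04 in ID8G cells and 3.06 and 3.13 in GO2 cells, and A_51_P113195 read 1.98 and 1.80 against 1.89 and 1.91. On both probes the GO2 arrays lie between the ID8G arrays. The differences were -0.01 (95% interval -0.20 to 0.18, limma adjusted p = 0.954) and 0.00 (95% interval -0.22 to 0.23, limma adjusted p = 0.969), and the brighter probe was at -0.21 with spike-in scaling.

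Upk3b rose in GO2 cells. Its single probe, A_52_P114889, read 1.47 and 1.51 in ID8G cells and 2.55 and 2.59 in GO2 cells. The gap between the lines is many times the gap between the arrays of a line, and setting each GO2 array against each ID8G array gave differences of 1.04 to 1.12. The difference was 1.08 (standard error 0.05, limma adjusted p = 0.000784), a 2.11-fold rise that ranks 1032 from the top of 22060 genes, and 8.09% of all tested genes had a larger absolute difference. The 95% interval, 0.93 to 1.22, reaches below 2-fold. With spike-in scaling the difference was 0.87 (limma adjusted p = 0.00014) and Upk3b was not called. Against Upk1b on the same array, where scaling cancels, the log2 ratio of Upk1b to Upk3b was 1.69 and 1.53 in ID8G cells and 0.51 and 0.54 in GO2 cells. Thus these uroplakin genes changed unequally.

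**Figure D2:**
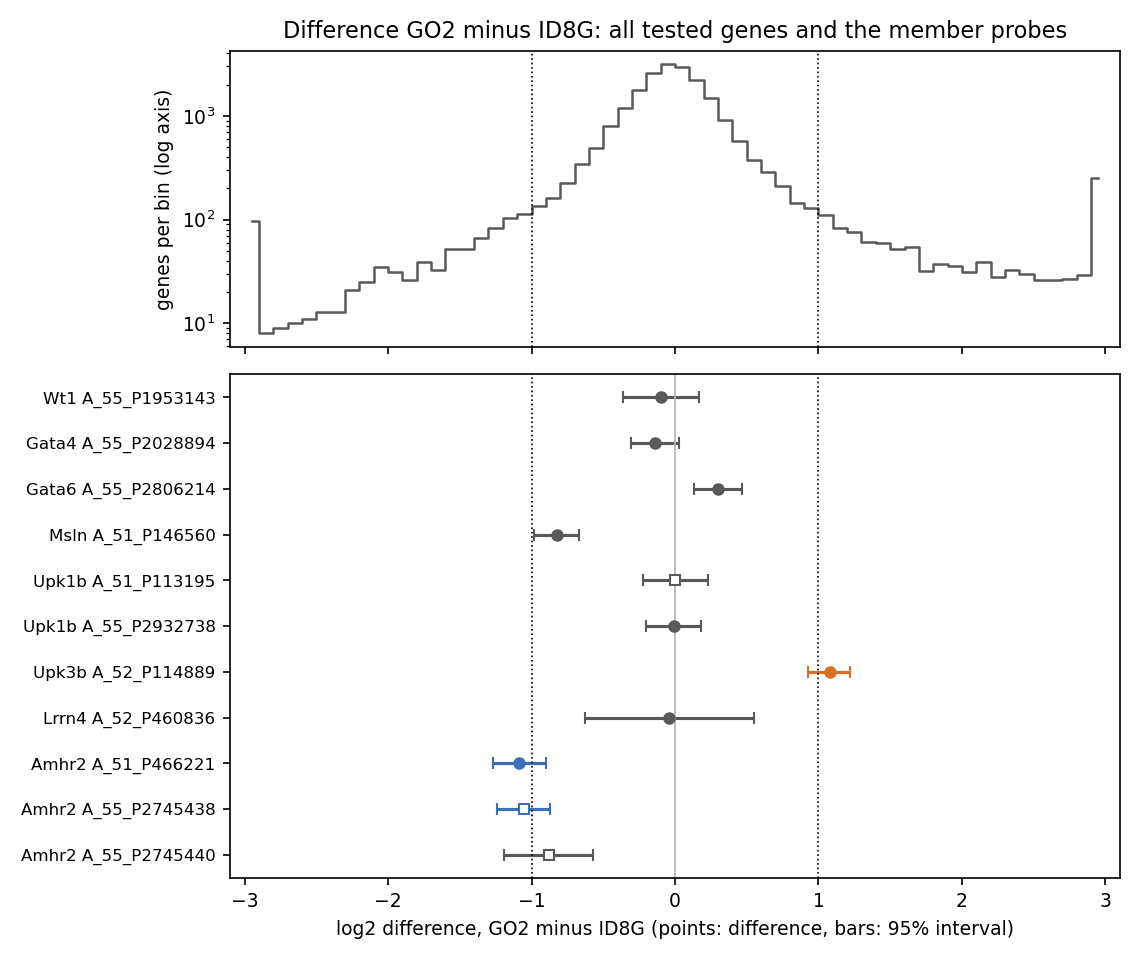
Log2 difference GO2 minus ID8G (x axis, shared) for all 22060 tested genes in the upper panel (y axis: genes per bin of 0.1, log axis; the end bins hold all genes beyond 2.9) and for the 11 tested probes below (points with 95% intervals; filled circles are the brightest tested probe of a gene, open squares its other probes; orange called higher, blue called lower). Upk3b at 1.08 and the Amhr2 probes at -1.09 and -1.05 pass the dotted 2-fold lines, and the intervals of Wt1, Gata4, Upk1b and Lrrn4 include 0.

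The promoter of Upk3b is shown because it is the only one of these genes called higher and its window holds a match to the binding site of GATA factors, to which Gata4 and Gata6 belong. The sequence is from RefSeq on GRCm38.p6, 250 bases before to 50 after the gene start on the plus strand, chr5:136038246-136038545. Capitals mark the GATA match, which begins 32 bases before the start.

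Upk3b: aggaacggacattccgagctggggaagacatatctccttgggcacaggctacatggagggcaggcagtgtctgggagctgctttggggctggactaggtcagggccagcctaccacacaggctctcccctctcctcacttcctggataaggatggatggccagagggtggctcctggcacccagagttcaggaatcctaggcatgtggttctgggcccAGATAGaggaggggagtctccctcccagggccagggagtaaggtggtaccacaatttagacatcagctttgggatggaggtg

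Lrrn4 encodes a leucine-rich repeat protein of the mesothelial surface. Its probe A_52_P460836 read -0.80 and -0.28 in ID8G cells and -0.73 and -0.43 in GO2 cells. The GO2 arrays lie within the range of the ID8G arrays. The difference was -0.04 (standard error 0.21, limma adjusted p = 0.895). This standard error is 3 times the median of 0.07 over all tested genes, and the 95% interval of -0.63 to 0.55 leaves room for a change of the size seen in Gata6.

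Amhr2 encodes the type II receptor for anti-Müllerian hormone, found in granulosa cells and in the mesenchyme and epithelium around the embryonic ducts. It fell in GO2 cells on each of its 3 probes. The brightest, A_51_P466221, read 4.24 and 4.11 in ID8G cells and 3.09 and 3.08 in GO2 cells. The probe A_55_P2745438 read 1.52 and 1.39 against 0.42 and 0.40, and A_55_P2745440 read -0.74 and -0.99 against -1.83 and -1.67. On all 3 probes both GO2 arrays are below both ID8G arrays.

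The brightest Amhr2 probe differed by -1.09 (standard error 0.07, limma adjusted p = 0.00144), which is 2.13-fold lower, with a 95% interval of -1.27 to -0.90 that reaches to less than 2-fold. It ranks 743 from the lowest of 22060 genes, and 8.0% of all tested genes had a larger absolute difference. The second probe differed by -1.05 (limma adjusted p = 0.00154) and was also called. The dimmest differed by -0.88 (standard error 0.11, limma adjusted p = 0.00868) and was not called. These probes target the same gene and are not independent of each other. Amhr2 was also called lower with spike-in scaling, at -1.30 for the brightest probe.

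The Amhr2 promoter is shown as the only one of these genes called lower. It lies at chr15:102445117-102445416 on the plus strand of GRCm38.p6, again from RefSeq. Capitals mark, in order, a match to the site of SF-1, the product of Nr5a1, and a match to the GATA site on the other strand, which begin 232 and 199 bases before the start.

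Amhr2: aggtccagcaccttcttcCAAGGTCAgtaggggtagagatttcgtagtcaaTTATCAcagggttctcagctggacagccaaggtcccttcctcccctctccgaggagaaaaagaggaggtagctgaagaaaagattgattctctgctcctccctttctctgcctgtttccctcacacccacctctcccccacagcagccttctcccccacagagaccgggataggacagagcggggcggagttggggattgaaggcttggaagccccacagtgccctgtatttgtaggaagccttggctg

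Of the 10 genes, 5 have a promoter in the table used, Upk3b and Amhr2 and also Lrrn4, Muc16 and Pax8. All letters were searched on both strands. The binding site of the GATA factors was searched in the form AGATAA, and also in the related form AGATAG found in Upk3b. Further forms of the same site that were included in this search are TGATAA, the one found in Amhr2, and finally the related spelling TGATAG. For WT1 and for the EGR factors, which recognize similar letters, the search used the form GCGTGGG, and it also used the more guanine-rich spelling GCGGGGG. The search for SF-1 used the letters CAAGGTCA, and that for a TATA box used the letters TATAAA. No match overlapped another in these windows. A GATA match was present in Upk3b, Amhr2 and Muc16, and in 29.8% of all 32851 promoters of that length. The SF-1 letters were present in Amhr2 and in 1.56% of all promoters. The WT1 and EGR letters occur in 14.7% and the TATA box in 13.6% of all promoters, and neither was found in these 5 windows. GC content was 58.7% in Upk3b with 2 CpG sites and 55.3% in Amhr2 with 5, against medians of 52.7% and 7. A match is a description of the letters, not a bound site.

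The relatives and partners of these genes were described from 11 lists, which hold 124 distinct genes beside the 10. Of these, 84 were tested, 23 were called higher and 7 lower. The lists were chosen with earlier results of these data known, and their share of calls, 35.7%, is therefore given next to the 8.28% of all tested genes without being read further.

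**Figure D3:**
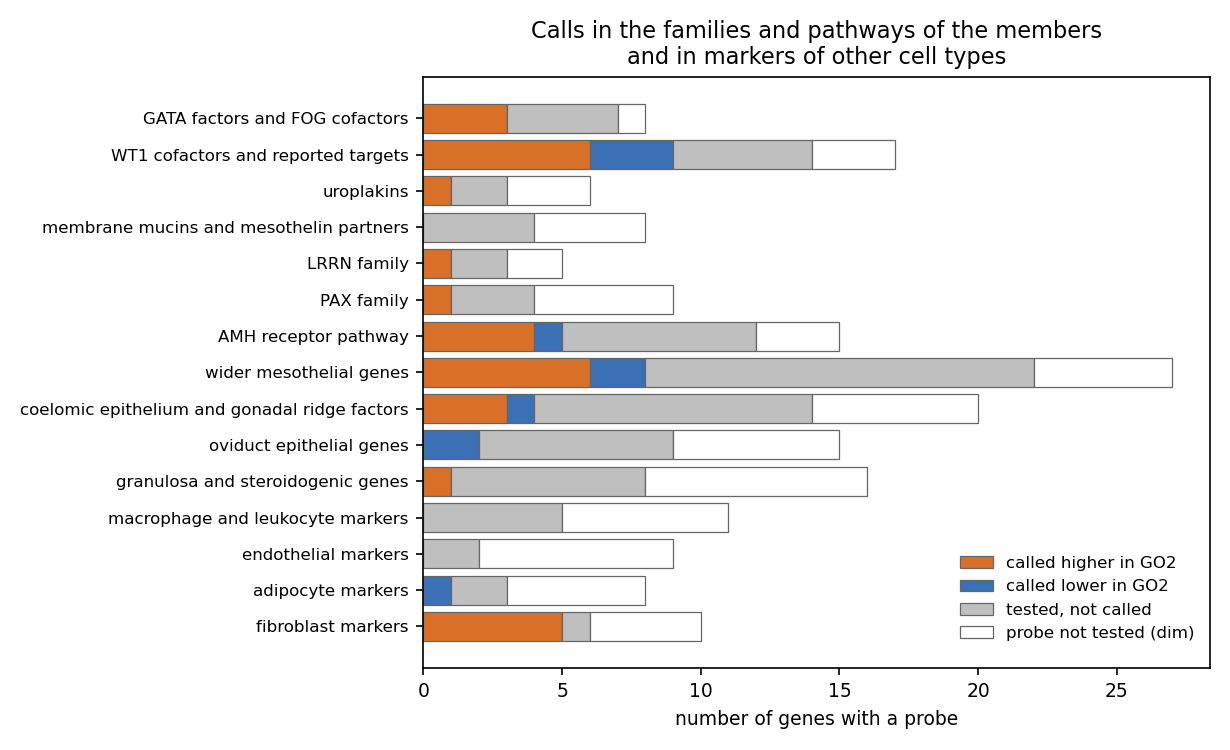
Number of genes with a probe (x axis) in 11 lists of families and pathways of the identity genes and 4 lists of markers of other cell types, split into called higher in GO2 cells (orange), called lower (blue), tested and not called (gray) and not tested because no probe was well above background on both arrays of either line (white). Calls upward are most frequent in the fibroblast markers, 5 of 6 tested genes. The mucins with mesothelin partners, the macrophage and leukocyte markers and the endothelial markers had no calls. The oviduct and adipocyte lists had calls downward only.

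In the GATA family with its FOG cofactors, 3 of 7 tested genes were called higher and none lower, with a median difference of 0.30. Zfpm1 encodes FOG1, a cofactor of GATA factors. On its brighter probe it read 1.61 and 1.54 in ID8G cells and 3.64 and 3.69 in GO2 cells. The difference was 2.09 (standard error 0.06, limma adjusted p = 0.000287). The other Zfpm1 probe was 4.05 higher and was also called. On the brighter probe the GO2 arrays lie above the ID8G arrays, as they do for Gata3 and Gata2. Gata3 rose from 0.81 and 0.90 to 2.23 and 2.21, by 1.36 (limma adjusted p = 0.000605). Gata2 rose from -3.24 and -3.49 to -2.36 and -2.23, by 1.07 (limma adjusted p = 0.00483). With spike-in scaling, which takes 0.21 off every difference, Gata2 lies under 2-fold, as do Pax3 and Crip1 of the lists below. Id1 and Krt18 then pass 2-fold downward. Pax7 does so only on GO2 readings that were not well above background. Gata5 differed by 0.18 (limma adjusted p = 0.0701), Zfpm2, which encodes FOG2, by -0.03 (limma adjusted p = 0.753), and Gata1 was not tested. The GATA members of the coelomic program thus changed by less than the hematopoietic and epithelial Gata2 and Gata3 on this scale, a comparison of differences that was not itself tested.

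Of 14 tested cofactors and reported targets of WT1, 6 were called higher and 3 lower, with a median of 0.15. Wnt4, a signal of ovarian development, read -1.18 and -1.57 in ID8G cells and 2.14 and 2.13 in GO2 cells, which is 3.51 higher (standard error 0.14, limma adjusted p = 0.000538). Wtip, a WT1-interacting protein, rose by 2.51 (limma adjusted p = 0.000201) and Aldh1a2, a retinoic acid synthase of the mesothelium, by 2.19 (limma adjusted p = 0.000499). Areg, which encodes the EGF receptor ligand amphiregulin, fell from 0.04 and 0.16 to -1.81 and -2.11 (difference -2.06, limma adjusted p = 0.00128). Vdr, the vitamin D receptor, differed by -1.11 (limma adjusted p = 0.00429), and Amhr2 is the other gene called lower. The list thus moved in both directions while Wt1 itself overlapped between the lines.

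The other uroplakins were dim. Upk1a read -0.92 and -0.59 in ID8G cells and -1.5 and -1.43 in GO2 cells, a difference of -0.71 (limma adjusted p = 0.0196) that is under 2-fold. Upk2, Upk3a and Upk3bl were too dim to test, so Upk3b was 1 of 3 tested uroplakins and the only one called. Among the mucins and mesothelin with its partners, 4 genes were tested and none was called. Muc20 differed by -0.72 (limma adjusted p = 0.00472), Muc13 by -0.32 (limma adjusted p = 0.0484) and Lgals3, which encodes the mucin-binding lectin galectin 3, by -0.47 (limma adjusted p = 0.00903). Muc13 was well above background on 1 GO2 array. With Msln, the remaining tested gene of this list, the median was -0.60. Muc1, Muc4, Muc15 and Mslnl were not tested.

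Of the LRRN family, Lrrn4cl was called higher. It was not well above background on the ID8G arrays, at -4.61 and -4.40, and read -2.17 and -2.11 in GO2 cells, at least 2.90-fold higher (limma adjusted p = 0.000478). That fold sets the GO2 mean against the lowest signal well above background on each ID8G array. Lrrn3 differed by 0.32 (limma adjusted p = 0.0499), and Lrrn1 and Lrrn2 were not tested. Of the PAX family, Pax3, a factor of neural crest and muscle, read 1.75 and 1.79 in ID8G cells and 2.84 and 2.77 in GO2 cells, which is 1.04 higher (standard error 0.06, limma adjusted p = 0.00103). Pax2, the close relative of Pax8, differed by -0.12 (limma adjusted p = 0.478), Pax5 by 0.06 (limma adjusted p = 0.797) and Pax7, not well above background on either GO2 array, was at least 1.45-fold lower (limma adjusted p = 0.00215) and not called. The remaining PAX genes were not tested.

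In the pathway of the AMH receptor, 4 of 12 tested genes were called higher and 1 lower, the receptor itself, with a median of 0.09. The ligand gene Amh, at -6.06 to -5.76, was too dim to test. The type I receptor genes Acvr1 and Bmpr1a differed by 0.06 and -0.15 (limma adjusted p = 0.463 and 0.0915). Bmpr1b, the other type I receptor gene, was not well above background in ID8G cells and was at least 1.54-fold higher in GO2 cells (limma adjusted p = 0.0284). That bound is under 2-fold, so the call of Bmpr1b rests on ID8G readings that were not well above background. Of the SMADs that carry the signal, Smad1 read -0.47 and -0.49 in ID8G cells and 2.37 and 2.33 in GO2 cells, which is 2.83 higher (standard error 0.05, limma adjusted p = 0.000188), while Smad5 differed by -0.15 (limma adjusted p = 0.0842). Of the Id genes, which respond to BMP signals, Id3 rose by 2.05 (limma adjusted p = 0.000255), Id2 rose by 1.32 (limma adjusted p = 0.000603) and Id1 differed by -0.86 (limma adjusted p = 0.00158, under 2-fold). Smad1, Id2 and Id3 thus rose, while the receptor gene fell and Id1 was also lower.

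Of 22 tested genes in a wider mesothelial list, 6 were called higher and 2 lower, with a median of 0.17. Tbx18, a T-box factor of the embryonic mesothelium, rose from -1.61 and -1.68 to 0.85 and 0.73, by 2.44 (limma adjusted p = 0.000299). Aldh1a2 is also in this list, and Thbd, which encodes the anticoagulant surface protein thrombomodulin, rose by 1.5 (limma adjusted p = 0.000483). Krt19, a keratin of simple epithelia, fell from 7.40 and 7.37 to 5.72 and 5.75, by 1.65 (limma adjusted p = 0.000339). The complement gene C3 differed by -1.56 (limma adjusted p = 0.000419). The keratin genes Krt8 and Krt18, also of simple epithelia and named after their values were seen, differed by -0.55 and -0.81 (limma adjusted p = 0.00438 and 0.00161), under 2-fold. The 2 probes of Nkain4 disagreed, at 0.19 and 3.16. Calb2 and Krt7, which encode calretinin and keratin 7 and are in common use as mesothelial markers, were not well above background on both arrays of either line. Tcf21, Igfbp5 and Itln1 were not tested either. Other genes of the list, named after their values were seen, were bright in both lines and not called. Pdpn differed by 0.09, Gpm6a by 0.01, Ezr by -0.08 and Clu by 0.14 (limma adjusted p = 0.316, 0.877, 0.274 and 0.112).

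Of 14 tested factors of the coelomic epithelium and gonadal ridge, 3 were called higher and 1 lower, with a median of 0.09. Osr1, a factor of the coelomic lining, was not well above background in ID8G cells and was at least 6.21-fold higher in GO2 cells (limma adjusted p = 0.000935). Lgr5, the R-spondin receptor that marks progenitors of the ovarian surface, read 1.89 and 1.90 in ID8G cells and -0.96 and -0.95 in GO2 cells, a change of -2.85 (standard error 0.05, limma adjusted p = 0.000188). Of 9 tested oviduct epithelial genes, none was called higher and 2 were called lower. Wfdc2, which encodes the ovarian cancer serum marker HE4, was not well above background in GO2 cells and was at least 3.55-fold lower (limma adjusted p = 0.00475), and Folr1, the folate receptor, differed by -1.43 (limma adjusted p = 0.000498) on its brighter and -0.92 on its other probe. Of 8 tested granulosa and steroidogenic genes, only Fst was called, at least 2.63-fold higher (limma adjusted p = 0.0111).

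Markers of other cell types of the omentum were read on the same arrays. The sort kept GFP+ CD45- cells, a gate set to remove leukocytes and host cells without GFP, and the sorted cells were cultured. Of the fibroblast markers, 5 of 6 tested genes were called higher, led by Col1a2, which differed by 7.49 (limma adjusted p = 0.000205), and the log2 of their summed level was 6.10 to 6.16 in ID8G cells and 7.23 in GO2 cells. Dcn, which encodes decorin and was the remaining tested marker, went the other way, from 6.07 and 6.01 in ID8G cells to 5.41 and 5.42 in GO2 cells (-0.63, limma adjusted p = 0.00308). Lum, Thy1, Fap and Postn were not tested. The summed log2 level of the macrophage and leukocyte markers was 4.62 to 4.77 in ID8G cells and 4.59 to 4.61 in GO2 cells, and the defining genes Ptprc, which encodes CD45, and Adgre1 were not well above background on both arrays of either line. The endothelial sum was -0.61 to -0.56 and 0.11 to 0.16, with Cdh5 and Kdr not tested, and none of 2 tested genes was called. These were Egfl7, which differed by 0.97 (limma adjusted p = 0.00122), under 2-fold, and Pecam1, by 0.08 (limma adjusted p = 0.521). The adipocyte sum was 1.89 to 1.97 and 1.37 to 1.53, with Adipoq and Plin1 not tested and Fabp4 at least 6.28-fold lower in GO2 cells (limma adjusted p = 0.000846). The other tested adipocyte markers were not called. Pparg, the brightest, differed by -0.42 (limma adjusted p = 0.015) and Lep by -0.04 (limma adjusted p = 0.62). The summed fibroblast and endothelial levels thus moved in the same direction as Upk3b and the adipocyte sum in that of Amhr2 and Msln. Each sum rests mostly on few bright genes, such as Egfl7 and Pparg. Of the endothelial markers 7 of 9 were not tested, and of the adipocyte markers 5 of 8. Whether other cell types had a part in the differences of Upk3b, Amhr2 and Msln was not tested.

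Of the nearest tested genes on each side of the 10 genes in RefSeq order, 2 of 20 were called. Over all tested genes the share called was 8.28%, and over those with a RefSeq symbol 9.92%. With 20 genes, this count is not set apart from those shares. Il1rn, the interleukin 1 receptor antagonist gene next to Pax8, read 3.39 and 3.43 in ID8G cells and 1.90 and 1.88 in GO2 cells, a difference of -1.52 (limma adjusted p = 0.000385). Bmp2, a BMP ligand gene next to Lrrn4, read -0.96 and -0.82 against 2.38 and 2.28, a difference of 3.22 (limma adjusted p = 0.000241). Next to Upk3b, Dtx2 differed by 0.50 (limma adjusted p = 0.00923) and Rasa4 by -0.56 (limma adjusted p = 0.0881), on the other side. The neighbors of Amhr2, Sp1 and Prr13, each differed by -0.02 (limma adjusted p = 0.902 and 0.792), and those of Msln, Rpusd1 and Ciao3, by 0.26 and 0.13 (limma adjusted p = 0.0350 and 0.153). Wt1os, the antisense transcript beside Wt1, differed by -0.55 (limma adjusted p = 0.0465), under 2-fold, and Gata6os, beside Gata6, by 0.17 (limma adjusted p = 0.173).

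**Figure D4:**
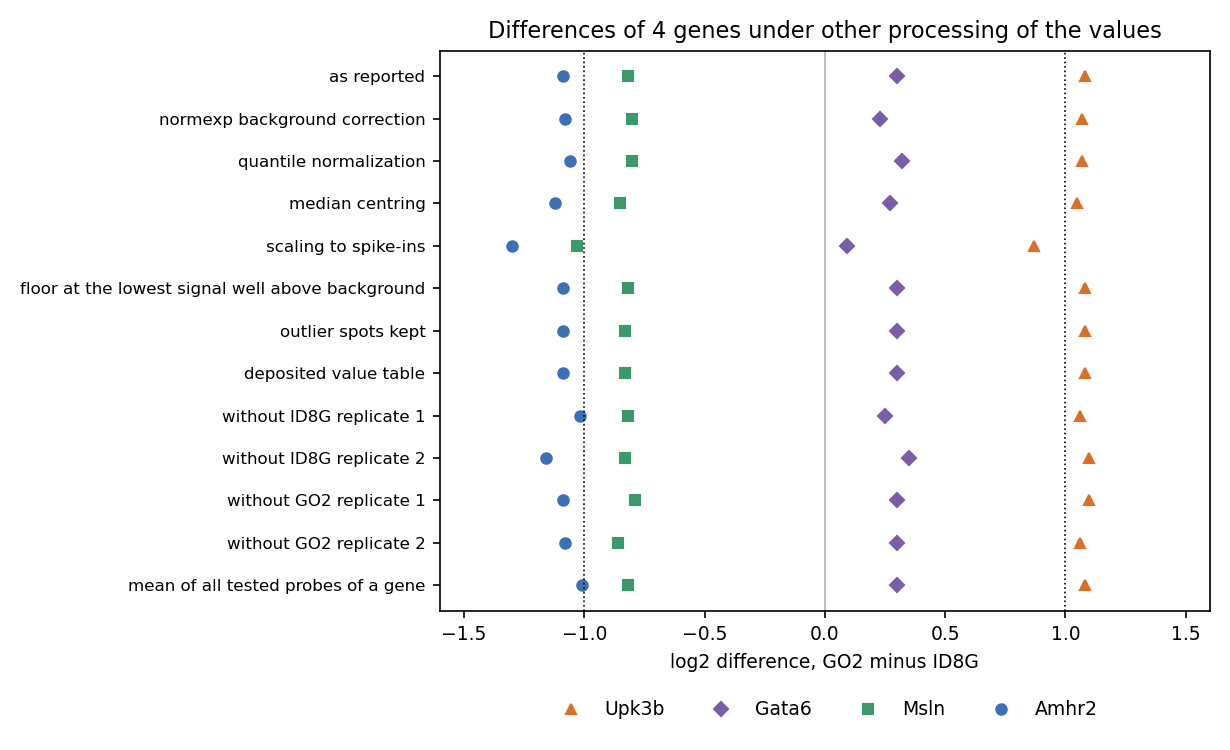
Log2 difference GO2 minus ID8G (x axis) of Upk3b, Gata6, Msln and Amhr2 (brightest tested probe, or the mean of its tested probes in the last line) as reported and under other processing (y axis: settings), with dotted lines at 2-fold. Upk3b stays between 0.87 and 1.10 and Amhr2 between -1.30 and -1.01, and spike-in scaling is the setting that takes Upk3b below and Msln past the 2-fold line.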

How the data were processed

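RNA of ID8G and GO2 cells was hybridized to 4 arrays on 1 slide, read in 1 scan. The authors deposited scanner output in which Feature Extraction 11.5.1.1 had subtracted background from every spot's linear intensity, with no step between arrays. A further deposited table has log2 values, which equal the scanner-derived values within 0.00545 once scaled to the 75th percentile and centered on the median of each probe; its column medians are 0.104 and -0.0478 (ID8G) and 0.038 and -0.0486 (GO2). The genome build of the authors' processing is not given in the sources used here.

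Levels are log2 intensity less the 75th percentile of its array, without spots marked as outliers (132 to 195 per array), averaged over spots of a probe. A probe was tested if both arrays of 1 or both lines read it well above background (28344 probes), with limma 3.58.1 in R 4.3.3 and Benjamini-Hochberg adjustment over all of them. The brightest tested probe stands for a gene. Where 1 line was not well above background, a fold is a lower bound against the lowest signal well above background (-3.85 to -3.53). Gene names came from RefSeq accessions (32994 of 56605 probes, 58.3%). The arrays of a line correlated at 0.997. Deviations of arrays with the same replicate number correlated at 0.0273, which shows no strong common shift across probes. This value cannot tell whether such arrays were prepared together.

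All 10 genes are named with every probe, with tested relatives from their families, up to 3 rises and 3 falls per other list (a listed gene among these is not reported here), and the nearest tested neighbors; others named for their values are said to be so or are marker genes. The genes and lists were chosen with earlier results of these data known. Alternatives were normexp (offset 50, on median rather than mean pixel signals, which the files hold), quantile, median and spike-in scaling, other filters on dim probes, a floor, outlier spots kept, a variance trend, the methods' t-test, limma treat, the replicate block, the deposited log2 values, the mean over probes, no minimum fold and each array left out. Slide as a block could not be fitted with 1 slide. The fit was tested on simulated data. Figures used matplotlib 3.10.9 in python 3.11.15.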

Additional observations from a re-analysis of the deposited data

How the results depend on the processing

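The calls of Upk3b and Amhr2 lie close to the 2-fold limit. The count of genes called higher (1) was 0 with spike-in scaling, with the methods' t-test and with limma treat, which tests against the 2-fold limit itself, and it was 2 with no minimum difference (Gata6 added). The count called lower (1) was 0 with the t-test and with limma treat, and 2 with spike-in scaling and with no minimum difference (Msln added). Leaving out each array gave 1 higher in all cases and 1 to 2 lower. The gene added without ID8G replicate 2 was Pax8, tested on the lone ID8G array that had signal, which is assumed to vary like the others. Under the t-test the adjusted p was 0.103 for Upk3b and 0.188 for Amhr2, and 0 genes of the whole array were called higher and 3 lower. At an unadjusted p below 0.05 with the 2-fold minimum, the t-test called 830 genes higher and 601 lower and limma 1089 and 806, with Upk3b and Amhr2 called by both, and limma treat called 0 of the 10 genes. The median difference of the 8 genes (-0.07) was -0.28 with spike-in scaling and -0.16 to -0.03 without 1 array, lowest without ID8G replicate 1. Of the neighbors, 2 were called, 0 with the t-test and 6 with no minimum difference. Of all listed genes, 38 were called, 0 with the t-test, 68 with no minimum difference and 34 to 42 without 1 array. The replicate block gave 1 higher and 1 lower and changed no 2-fold call among the 10 genes, while Gata6 no longer passed without the minimum fold (adjusted p = 0.0523), with 37 listed genes and 2 neighbors called and a median of -0.07. Of the single-probe values, 192 kept their side of the threshold, 8 lost a call and 6 gained one. Over all genes, 1826 were called, and 1132 with normexp, 997 with limma treat and 1064 with signal required on all 4 arrays. Array number and signal over background limit Pax8 and the dim Gata4 probe, and the spread between arrays limits Lrrn4.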

Other observations

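Some genes of the granulosa list that are not among the 10 genes, named here after their values were seen, were bright in both lines. Foxl2, a forkhead factor of granulosa cells, read 4.85 and 4.79 in ID8G cells and 4.74 and 4.77 in GO2 cells, a change of -0.07 (standard error 0.05, limma adjusted p = 0.374). Nr5a1, which encodes the steroidogenic factor SF-1, read 2.67 and 2.63 against 2.60 and 2.74, with arrays that overlap and a difference of 0.03 (limma adjusted p = 0.789). Cyp17a1, an androgen synthesis enzyme, read 3.24 and 3.35 against 3.65 and 3.34 and differed by 0.20 (limma adjusted p = 0.284). Of the oviduct list, Epcam was not tested, at -6.02 to -5.66. Cyp11a1 of the granulosa list was not well above background on any array and was not tested. Fshr and Cyp19a1 of this list were well above background on GO2 replicate 1 only, at -2.18 and -2.66, and were not tested either.

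Ratios between genes on the same array, chosen after the values were seen, do not depend on scaling. The log2 ratio of Msln to Upk3b was 3.67 and 3.62 in ID8G cells and 1.72 and 1.76 in GO2 cells. That of Upk3b to Amhr2 was -2.77 and -2.60 against -0.54 and -0.49. That of Msln to Amhr2, both of which were lower in GO2 cells, was 0.90 and 1.02 against 1.18 and 1.27. No test was run on these ratios.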
